A study of Mus musculus with 6 samples.

Results

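The genes described here encode the subunits of the transcription factor NF-kB (Rel, Rela, Relb, Nfkb1 and Nfkb2) and proteins that hold it in check (Nfkbia, Nfkbib, Nfkbie, Nfkbiz and Tnfaip3). The 10 genes were taken by symbol from the platform's probe annotation, with the probe set of the highest mean where a gene had several. Of the 10, 9 had a probe set of their own, 1 each, among 22180 genes with a probe set, and Nfkb1 was not analysed here. They were followed in haematopoietic stem cells sorted by flow cytometry from C57BL/6J mice as negative or positive for CCR2, the chemokine receptor that guides monocytes out of the marrow. Each group had 3 pools, named replicates 1 to 3, and each pool held marrow of 20 mice and was hybridised to 1 array after amplification of 5 ng of RNA. The study's design calls the pools biological replicates. No genotype or treatment is named for either group, and the sources used here do not give the age or sex of the mice, the remaining sort markers or any sharing of mice between pools of different groups.

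NF-kB factors are dimers of Rel proteins that bind short DNA elements called kB sites. In resting cells IkB proteins keep most dimers in the cytoplasm, and signals from TNF, interleukin-1 or Toll-like receptors activate the IKK kinases, which mark IkB for destruction. Several NF-kB genes, among them those of some inhibitors such as Nfkbia, carry kB sites and are themselves induced by the pathway. Where an inhibitor is induced, this gives negative feedback. In blood stem cells the pathway is known for its part in survival and in the response to inflammation.

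The sequence before the start of a gene can be searched for letters that resemble a kB site. The 3 genes with the lowest values in CCR2-positive pools relative to CCR2-negative pools are shown, a choice made by difference and not by matches. Each is the 250 bases before the RefSeq start, GRCm38.p6, written 5′ to 3′ on the strand of the gene. Capitals mark matches on either strand to GGNNNTTCC, a 9-base pattern that many kB sites hold.
Rel, chr11:23770970-23771219, minus strand: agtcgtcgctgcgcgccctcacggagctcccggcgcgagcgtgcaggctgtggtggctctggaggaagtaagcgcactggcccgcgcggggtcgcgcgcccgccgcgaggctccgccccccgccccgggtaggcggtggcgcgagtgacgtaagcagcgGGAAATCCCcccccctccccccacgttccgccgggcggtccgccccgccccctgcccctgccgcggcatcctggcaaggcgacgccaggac
Nfkbie, chr17:45555450-45555699, plus strand: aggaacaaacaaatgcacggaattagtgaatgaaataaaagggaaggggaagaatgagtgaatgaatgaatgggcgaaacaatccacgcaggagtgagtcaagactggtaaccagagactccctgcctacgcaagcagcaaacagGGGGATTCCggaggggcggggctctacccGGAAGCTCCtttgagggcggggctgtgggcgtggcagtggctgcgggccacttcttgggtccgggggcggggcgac
Nfkbia, chr12:55492648-55492897, minus strand: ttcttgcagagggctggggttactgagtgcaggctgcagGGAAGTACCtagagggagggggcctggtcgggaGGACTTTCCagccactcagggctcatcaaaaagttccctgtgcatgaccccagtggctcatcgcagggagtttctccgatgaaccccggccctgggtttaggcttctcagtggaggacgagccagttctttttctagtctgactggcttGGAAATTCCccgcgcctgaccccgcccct

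Rel has 1 match, 91 to 83 bases before its start, which reads GGGATTTCC on the opposite strand. Nfkbie has 2, of which GGGGATTCC lies on the strand of the gene 105 to 97 bases before the start. Nfkbia has 3, of which GGAAATTCC lies 29 to 21 bases and GGACTTTCC 178 to 170 bases before the start. Tnfaip3 has GGAATTTCC 24 to 16 bases before its first start, followed by GGGATTTCC on the opposite strand at 12 to 4 bases. In Nfkb2, whose transcript was slightly higher in CCR2-positive pools on average, GGGCTTTCC lies 10 to 2 bases before its first listed start. Entries were held for 7 of the genes (not for Nfkb1, Relb and Nfkbiz), with 10 windows in all because Nfkb2 has 3 starts and Tnfaip3 has 2. The pattern was in 5 of the 7 genes, all but Rela and Nfkbib, and in 17.6% of 27018 genes and 15.7% of 32841 windows of the same length. The stricter 10-base kB consensus was also in 5 of the 7, and in 4.46% of all genes and 3.90% of all windows. Matches to the 2 patterns overlap each other, and a match is a description of letters, not evidence of binding.

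Among the NF-kB subunits, the transcript of Rel was lower in CCR2-positive pools, and those of Rela, Relb and Nfkb2 were slightly higher on average. None of these differences passed the adjusted threshold. The pools also differed in cell markers, as described below. Rel encodes c-Rel, a subunit with a strong activation domain that is most used in blood cells. Its log2 value was 6.96, 6.90 and 7.11 in CCR2-negative replicates 1, 2 and 3, and 6.48, 6.37 and 5.96 in the CCR2-positive ones. Every CCR2-positive pool was below every CCR2-negative pool, and CCR2-positive replicate 3 was the lowest. The group means were 6.99 ± 0.11 (SD, n = 3) and 6.27 ± 0.28 (SD, n = 3), a 1.65-fold difference.

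The difference for Rel, CCR2-positive minus CCR2-negative here and below, was -0.72 ± 0.15 on the log2 scale (SE), with a 95% interval of -1.06 to -0.38. In the limma fit over all genes its unadjusted p was 0.00109, the 132nd smallest of 22180, and its Benjamini-Hochberg adjusted p was 0.177. The exact two-sided permutation test over the pools gave p = 0.1, the smallest that 3 against 3 pools can give. With each pool left out in turn the difference ran from -0.83 to -0.57.

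Rela, which encodes the main activating subunit of the classical pathway, had log2 values of 8.74, 8.67 and 8.66 in CCR2-negative and 8.67, 9.16 and 8.56 in CCR2-positive pools. CCR2-positive replicate 2 stood above all other pools, and the other two CCR2-positive pools lay within or below the CCR2-negative range. The difference was 0.10 ± 0.16 (limma adjusted p = 0.824) and turned to -0.080 without that pool.

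The subunits of the alternative pathway are Relb and Nfkb2, whose products form a dimer after the Nfkb2 precursor is processed. Relb had 5.37, 5.38 and 5.56 in CCR2-negative and 5.70, 5.55 and 5.73 in CCR2-positive pools, with an overlap between CCR2-negative replicate 3 and CCR2-positive replicate 2. Its difference was 0.22 ± 0.11 (limma adjusted p = 0.444). Nfkb2 had 6.33, 6.24 and 6.43 in CCR2-negative and 6.60, 6.33 and 6.66 in CCR2-positive pools, a difference of 0.20 ± 0.12 (limma adjusted p = 0.540), with CCR2-positive replicate 2 inside the CCR2-negative range. In both genes CCR2-positive replicate 2 was the lowest of its group. Without it the differences were 0.28 for Relb and 0.30 for Nfkb2, with unadjusted limma p of 0.0473 and 0.0340 and adjusted p of 0.358 and 0.329. The intervals with all pools, -0.02 to 0.47 for Relb and -0.08 to 0.47 for Nfkb2, lay apart from that of Rel, although the difference between genes was not tested.

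**Figure D1:**
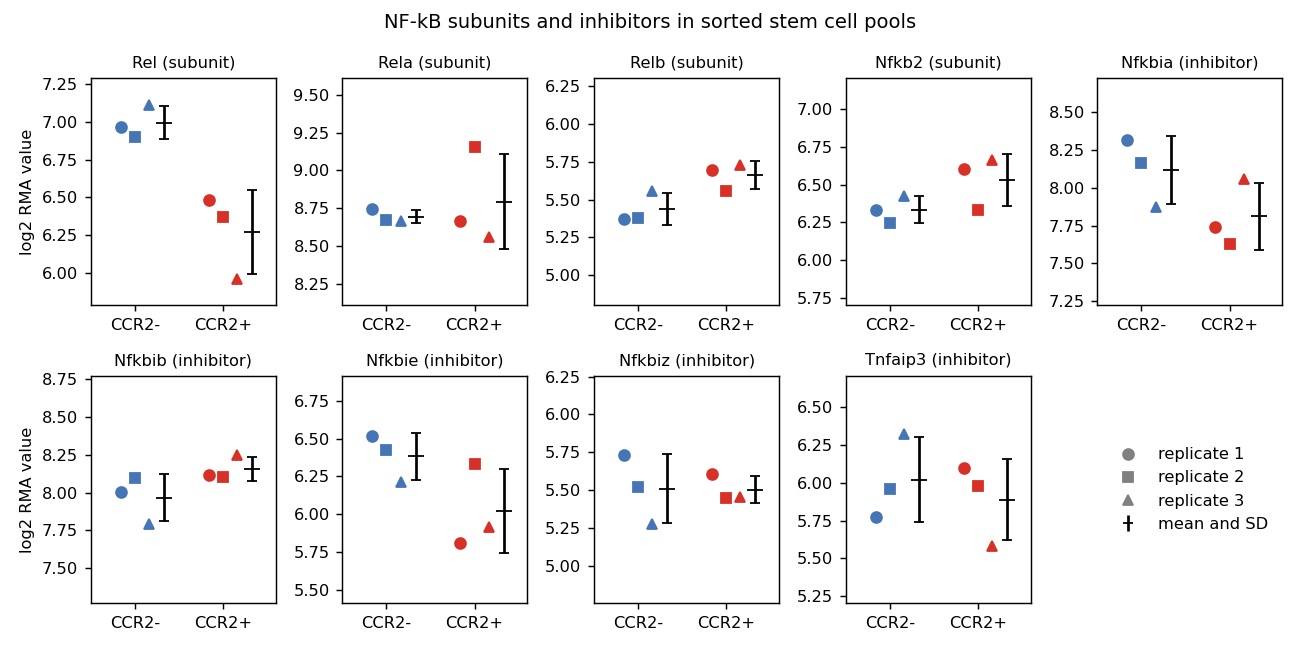
Log2 RMA value (vertical axes) of each NF-kB subunit and inhibitor in the 3 CCR2-negative (blue) and 3 CCR2-positive (red) pools. Each replicate number has its symbol, and bars give mean and SD. The axes all span the same width but are centred on each gene's own values, so heights cannot be compared between panels. Rel pools separate fully, at 6.90 to 7.11 against 5.96 to 6.48, and Nfkbib pools separate by a narrow margin in the other direction. The pools of all other genes shown overlap.

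Of the inhibitors, Nfkbie and Nfkbia were lower in CCR2-positive pools on average, Nfkbib was higher, and the values of Nfkbiz and Tnfaip3 overlapped widely. Nfkbie encodes IkB epsilon, an inhibitor that is itself induced by NF-kB. Its log2 value was 6.52, 6.42 and 6.21 in CCR2-negative and 5.81, 6.33 and 5.92 in CCR2-positive pools. CCR2-positive replicate 2 lay among the CCR2-negative pools, and the other two CCR2-positive pools lay below them. The difference was -0.37 ± 0.16, with a 95% interval of -0.72 to -0.01, a limma unadjusted p of 0.0454 and an adjusted p of 0.394. It was -0.52 without CCR2-positive replicate 2 and -0.26 without CCR2-positive replicate 1.

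Nfkbia encodes IkB alpha, the inhibitor that is degraded and made again most quickly after a signal. It had 8.32, 8.16 and 7.87 in CCR2-negative and 7.74, 7.63 and 8.06 in CCR2-positive pools. CCR2-positive replicate 3 was above CCR2-negative replicate 3, so that the groups overlapped. The difference was -0.31 ± 0.16 (limma adjusted p = 0.463), -0.43 without CCR2-positive replicate 3 and -0.21 without CCR2-negative replicate 1.

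Nfkbib encodes IkB beta, a slower inhibitor. It had 8.01, 8.10 and 7.79 in CCR2-negative and 8.12, 8.11 and 8.25 in CCR2-positive pools, with all CCR2-positive pools higher by a narrow margin. The difference was 0.19 ± 0.11 (limma adjusted p = 0.533). Without CCR2-negative replicate 3 it was 0.11.

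Nfkbiz encodes IkB zeta, a nuclear protein that can also activate NF-kB targets. It had 5.73, 5.52 and 5.27 in CCR2-negative and 5.61, 5.45 and 5.45 in CCR2-positive pools, and the latter all lay inside the CCR2-negative range. Its difference of -0.005 ± 0.134 had a 95% interval of -0.31 to 0.30 and turned sign with the setting. Tnfaip3, the ubiquitin-editing enzyme that ends signalling from TNF and Toll-like receptors, had 5.77, 5.96 and 6.33 in CCR2-negative and 6.09, 5.98 and 5.59 in CCR2-positive pools. The difference of -0.13 ± 0.18 (limma adjusted p = 0.793) turned to 0.021 without CCR2-negative replicate 3 and to 0.018 without CCR2-positive replicate 3.

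Counted together, 4 of the 9 genes had a difference above 0, as had 56% of all genes, and 5 one below 0, as had 44% of all genes. Their median difference was -0.005 against 0.03 over all genes. The limma fit called 0 of 22180 genes at an adjusted p of 0.05 (0%), with 2716 at an unadjusted p under 0.05. At an unadjusted p under 0.05 there were 2 of the 9, Rel and Nfkbie, both lower, and 12.2% of all genes, 6.61% in that direction and 5.63% in the other. Pools were fully separated between the groups in 2 of the 9, Rel lower and Nfkbib higher, and in 18.6% of all genes, 7.88% lower and 10.8% higher. Counts of 2 in 9 are not far from those shares of all genes. With 1 pool left out, 1 to 4 of the 9 had an unadjusted p under 0.05. Without CCR2-positive replicate 2 there were 4 (Rel, Nfkbie, Nfkb2 and Relb), and 13.7% of all genes. Without CCR2-negative replicate 3 there were 3 (Rel, Nfkbie and Nfkbia), and 10.7% of all genes. Without CCR2-positive replicate 3 there were 2 (Rel and Nfkbia), and 11.2% of all genes. Rel was the 1 gene left on omitting CCR2-negative replicate 1 (8.66% of all genes), CCR2-negative replicate 2 (9.46%) or CCR2-positive replicate 1 (11.0%). Subunits had a median of 0.15 (0.10 without CCR2-positive replicate 2), with Rel as the 1 of 4 below 0, and inhibitors a median of -0.13, with Nfkbib as the 1 of 5 above 0. The inhibitor median ran from -0.24 without CCR2-positive replicate 1 to 0.018 without CCR2-positive replicate 3.

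**Figure D2:**
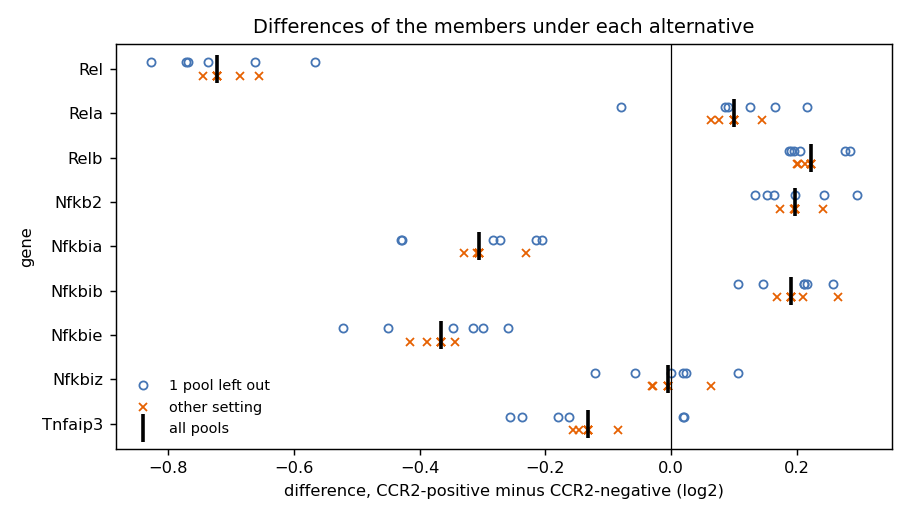
Difference of each NF-kB gene, CCR2-positive minus CCR2-negative (log2, horizontal axis), with all pools (black bar), with 1 pool left out (circles) and under the other settings (crosses). Rel stayed between -0.83 and -0.57, while Rela, Nfkbiz and Tnfaip3 crossed 0.

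The genes whose values followed those of Rel and Nfkbie most closely over the 6 pools were sought among 6350 genes of above-median level and spread. For Rel they were Dmtf1, a cyclin D-binding transcription factor gene (r = 0.993, difference -0.72), Zscan26, a zinc finger gene (r = 0.989, difference -0.56), and Cilk1, a kinase gene (r = 0.988, difference -0.34). For Nfkbie they were Trpc4ap (r = 0.986), Gpr108 (r = 0.984) and Pttg1, which encodes securin (r = 0.983). With 6 pools and so many genes such values describe the arrays only, and they share the group difference.

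Further IkB-like and ankyrin repeat genes were lower in CCR2-positive pools in 4 of 4 cases, by a median of -0.16 that was -0.08 without CCR2-positive replicate 2, and none passed the adjusted threshold. The share of all genes that were lower was 44%. Nfkbil1, an IkB-like gene of the MHC region, differed by -0.38 ± 0.14 (limma adjusted p = 0.347). It had 6.97, 6.95 and 7.19 in CCR2-negative and 6.92, 6.61 and 6.43 in CCR2-positive pools, which did not overlap. Bcl3, a nuclear IkB protein that partners Nfkb1 and Nfkb2 products, differed by -0.16 ± 0.16, and Nfkbid, which encodes the nuclear inhibitor IkB NS, by -0.15 ± 0.11. Ankrd42, an ankyrin repeat gene, differed by -0.02 ± 0.11 and turned to 0.061 without CCR2-negative replicate 1 and to 0.026 without CCR2-positive replicate 3.

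Of the IKK kinases and their relatives 5 of 6 were lower, by a median of -0.18 (-0.12 after a second quantile normalization), with 2 at an unadjusted p under 0.05. Those 2 were the IKK-related kinases that act on interferon regulatory factors as well as on NF-kB. Over all genes 44% were lower, and 12.2% had an unadjusted limma p under 0.05, 6.61% in that direction. Tbk1 had 8.03, 8.08 and 7.94 in CCR2-negative and 7.90, 7.51 and 7.45 in CCR2-positive pools, a difference of -0.40 ± 0.14 (limma adjusted p = 0.306) without overlap. Ikbke differed by -0.43 ± 0.17 (limma adjusted p = 0.363) with overlapping pools. Ikbkb, the kinase that marks IkB alpha in the classical pathway, differed by -0.18 ± 0.11, and Tank, a scaffold of Tbk1, by -0.18 ± 0.14.

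Between receptors and IKK, 17 of 22 signalling genes were lower and 5 higher, with a median of -0.08. The 4 at an unadjusted p under 0.05 were all lower. Among all genes 44% were lower, and 6.61% were lower at that limma p. Irak3, which encodes an inactive IRAK kinase that dampens Toll-like receptor signals, had 7.64, 7.31 and 7.39 in CCR2-negative and 6.51, 6.82 and 6.85 in CCR2-positive pools. The groups did not overlap, and the difference of -0.72 ± 0.14 (limma unadjusted p = 6.3e-04, adjusted p = 0.177) was close in size to that of Rel. Malt1 and Bcl10, partners in the complex that links antigen receptors to IKK, differed by -0.27 ± 0.10 and -0.40 ± 0.17, and Prkcq, a kinase upstream of that complex in T cells, by -0.36 ± 0.13. Their limma adjusted p-values were 0.331, 0.383 and 0.312.

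The list shown in the figures as ubiquitin editors and other brakes had 17 of 21 genes below 0, as had 44% of all genes, and a median of -0.18. Not all of its genes restrain NF-kB, so these counts do not describe brakes alone. Birc2, which encodes the ubiquitin ligase cIAP1, had 7.67, 8.08 and 7.56 in CCR2-negative and 7.46, 7.11 and 6.88 in CCR2-positive pools, a difference of -0.62 ± 0.18 (limma adjusted p = 0.259). Xiap, a related caspase inhibitor, differed by -0.24 ± 0.10 and Tax1bp1, an adaptor of Tnfaip3, by -0.25 ± 0.11, neither with overlapping pools. Tnip3, another partner of Tnfaip3, differed by -0.39 ± 0.19. The list had 2 of 21 genes at an unadjusted p under 0.05, Birc2 and Xiap, both lower. All genes had 12.2% at that limma p, 6.61% of them lower as a share of all genes. The median of the list was -0.11 after a second quantile normalization and -0.09 without CCR2-positive replicate 3.

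Nuclear cofactors were split evenly, 5 higher and 5 lower, with a median of 0.006. It ran from -0.096 (without CCR2-positive replicate 1) to 0.032 (without CCR2-negative replicate 1), and was -0.017 with median centring and 0.065 with array weights. The acetyltransferase genes Ep300 and Crebbp differed by -0.26 ± 0.12 and -0.29 ± 0.13. Rps3, a ribosomal protein that also joins NF-kB dimers, differed by -0.14 ± 0.10 and Pias1, a SUMO ligase gene, by -0.13 ± 0.11. None of the 10 had an unadjusted limma p under 0.05, against 12.2% of all genes.

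Among the receptors that feed the pathway 12 of 19 were lower, by a median of -0.07, and 5 had an unadjusted p under 0.05, all lower. The shares over all genes were 44% lower, 6.61% lower at that limma p and 7.88% lower without overlap. Tlr2, which senses bacterial lipoproteins, had 6.80, 6.83 and 6.68 in CCR2-negative and 6.53, 6.38 and 6.41 in CCR2-positive pools, a difference of -0.34 ± 0.10 (limma adjusted p = 0.270). The groups did not overlap for Tlr2, nor for Tnfrsf1a and Tnfrsf1b, the TNF receptors (-0.52 ± 0.12 and -0.50 ± 0.13), and Cd27, a further receptor of that family (-0.61 ± 0.15). The fifth, Tlr4, the receptor of lipopolysaccharide, differed by -0.59 and is named after its values were seen. The median moved to -0.17 among the 16 receptors above the 25th percentile of mean level and to -0.25 among the 11 above the median level, and was -0.04 without CCR2-positive replicate 2.

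**Figure D3:**
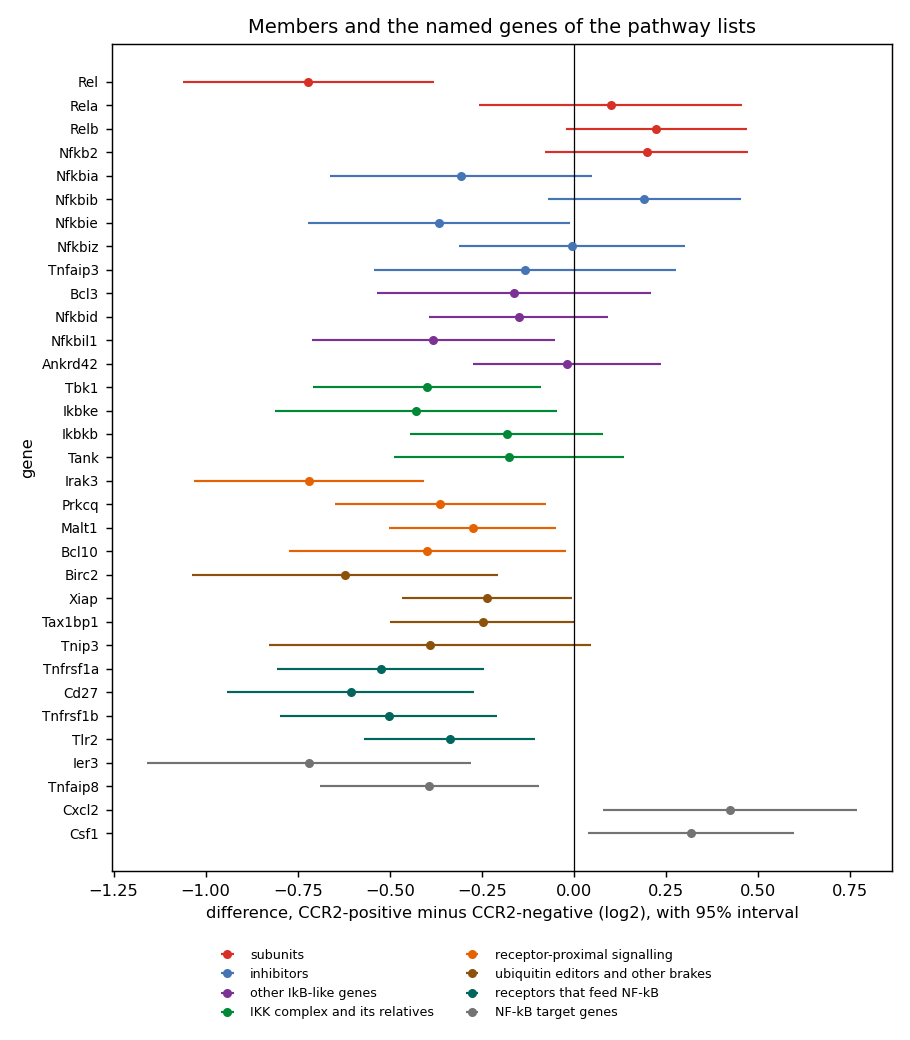
Difference, CCR2-positive minus CCR2-negative (log2, horizontal axis), with its 95% limma interval for the NF-kB subunits and inhibitors and 4 genes of each of 6 of the pathway lists (colours). The 4 are all measured genes of the other IkB-like list and those with the smallest p of the remaining lists. Since the genes of the remaining lists were picked by p, their intervals mostly exclude 0, and no gene shown passed an adjusted p of 0.05.

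NF-kB target genes lay on both sides of 0, 22 higher and 16 lower of 38, with a median of 0.05. At an unadjusted p under 0.05 there were 3 higher and 5 lower. Over all genes 56% were higher, and at that limma p 5.63% were higher and 6.61% lower. Ier3, an early response gene of cell survival, had 7.77, 8.14 and 7.76 in CCR2-negative and 7.49, 6.76 and 7.26 in CCR2-positive pools, a difference of -0.72 ± 0.19 (limma adjusted p = 0.235) without overlap. Tnfaip8, a TNF-induced survival gene, differed by -0.39 ± 0.13 (limma adjusted p = 0.297). In the other direction, Cxcl2, a neutrophil chemokine gene, had 4.31, 4.13 and 4.19 in CCR2-negative and 4.65, 4.34 and 4.91 in CCR2-positive pools, a difference of 0.42 ± 0.15 (limma adjusted p = 0.324). Cxcl2 was dim, with a mean level at the 20th percentile of all genes, under the 25th used as a filter. Csf1, the growth factor of macrophages, differed by 0.32 ± 0.12 (limma adjusted p = 0.357). The remaining 4, named after their values were seen, were Slfn2 (-0.50), the adhesion molecule gene Icam1 (-0.36), the interferon regulatory factor gene Irf1 (-0.25) and Sele, which encodes E-selectin (0.32). The median was 0.02 without CCR2-positive replicate 3, and turned to -0.07 among the 30 targets above the 25th percentile of mean level and to -0.13 among the 21 above the median level. The classical cytokine targets Tnf, Il1b and Il6, also named after their values were seen, differed by -0.13, 0.12 and 0.11, with unadjusted limma p of 0.256, 0.431 and 0.423.

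Immediate early and stress genes, which sorting can induce together with Nfkbia, Nfkbiz and Tnfaip3, lay above 0 in 16 and below 0 in 8 of 24 cases, with a median of 0.03 that ran from 0.007 (without CCR2-negative replicate 2) to 0.14 (without CCR2-negative replicate 1). The share of all genes above 0 was 56%. Dusp2, a phosphatase gene, differed by -0.47 ± 0.14 and the nuclear receptor gene Nr4a1 by 0.43 ± 0.13, in opposite directions. Jund and Dnajb1 differed by 0.47 ± 0.23 and 0.28 ± 0.14. The list mean ran from 6.28 to 6.50 in CCR2-negative and from 6.42 to 6.47 in CCR2-positive pools. CCR2-negative replicate 1 had the highest list mean and the highest Nfkbia and Nfkbiz values of all pools, while its Tnfaip3 value of 5.77 was the lowest of its group. The part of handling in those values was not tested.

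Marker genes of several cell types differed between the groups as well, although the sums of most lists overlapped. For comparison with the counts of every marker list, 56% of all genes were higher and 44% lower. Stem cell markers were lower in 13 of 13 cases by a median of -0.47, their unlogged values summing to 4429 to 5259 in CCR2-negative and 2951 to 3536 in CCR2-positive pools. Of these, Tek (-0.82 ± 0.16) and Cd34 (-0.83 ± 0.17) had the smallest unadjusted limma p, 8.8e-04 and 9.4e-04 (adjusted p = 0.177 for both). Both were below the unadjusted p of Rel. Erythroid markers were higher in 13 of 13 by a median of 0.51, with sums of 7119 to 9158 against 9946 to 12665. Monocyte and macrophage markers were higher in 12 of 14 (sums 1850 to 2457 against 2115 to 3487) and neutrophil markers in 14 of 14 (641 to 1238 against 803 to 2185, median 0.24, and 0.39 and 0.50 without CCR2-positive replicate 1 or 3). Among basophil and mast cell markers 7 of 10 were higher (361 to 405 against 306 to 914). The basophil protease gene Mcpt8 had 5.89, 6.41 and 6.36 in CCR2-negative and 5.96, 8.76 and 9.09 in CCR2-positive pools, so that CCR2-positive replicates 2 and 3 stood apart. Ccr2 itself was higher on average, by 0.79 ± 0.24 (limma unadjusted p = 0.0111, adjusted p = 0.274), and its pools overlapped, at 5.64 to 6.26 against 6.18 to 7.10. The pools were sorted by CCR2, and Ccr2 is among the 12 monocyte and macrophage markers counted as higher and in their sums.

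Markers of B cells were higher in 7 of 9 cases by a median of 0.09 (sums 425 to 476 against 392 to 490), which ran from 0.04 without CCR2-negative replicate 1 to 0.15 without CCR2-negative replicate 3. Those of T and NK cells were higher in 9 of 11 by a median of 0.11 (729 to 849 against 687 to 794), or 0.05 without CCR2-positive replicate 3. Among the genes above the median level these medians were -0.0053 for the 2 B cell genes and -0.09 for the 2 T and NK cell genes. Dendritic cell markers were higher in 4 of 8 (891 to 990 against 814 to 883), with the MHC class II gene H2-Aa at -0.61 ± 0.19. Megakaryocyte and platelet markers were higher in 5 of 9 (2589 to 3477 against 2606 to 3301), and those of stroma and endothelium in 5 of 10 (547 to 637 against 554 to 619). In the megakaryocyte and platelet list Selp differed by -0.66 ± 0.13 and Ppbp by 0.80 ± 0.36, in opposite directions. RMA values have no 0, and within a list the probe sets ranged from dim to bright. Group means, CCR2-negative first, were 3.47 and 3.69 for Ly6g and 6.79 and 7.87 for S100a8 of neutrophils. They were 3.56 and 3.65 for Ms4a1 and 7.66 and 7.41 for Cd79b of B cells. They were 3.70 and 3.85 for Cd3g of T cells and 8.92 and 8.68 for Nkg7 of T and NK cells. In pooled cells, fewer cells of a type and less RNA of a gene per cell cannot be told apart. The part of these shifts in the values of Rel, Nfkbie and the other NF-kB genes was not tested.

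**Figure D4:**
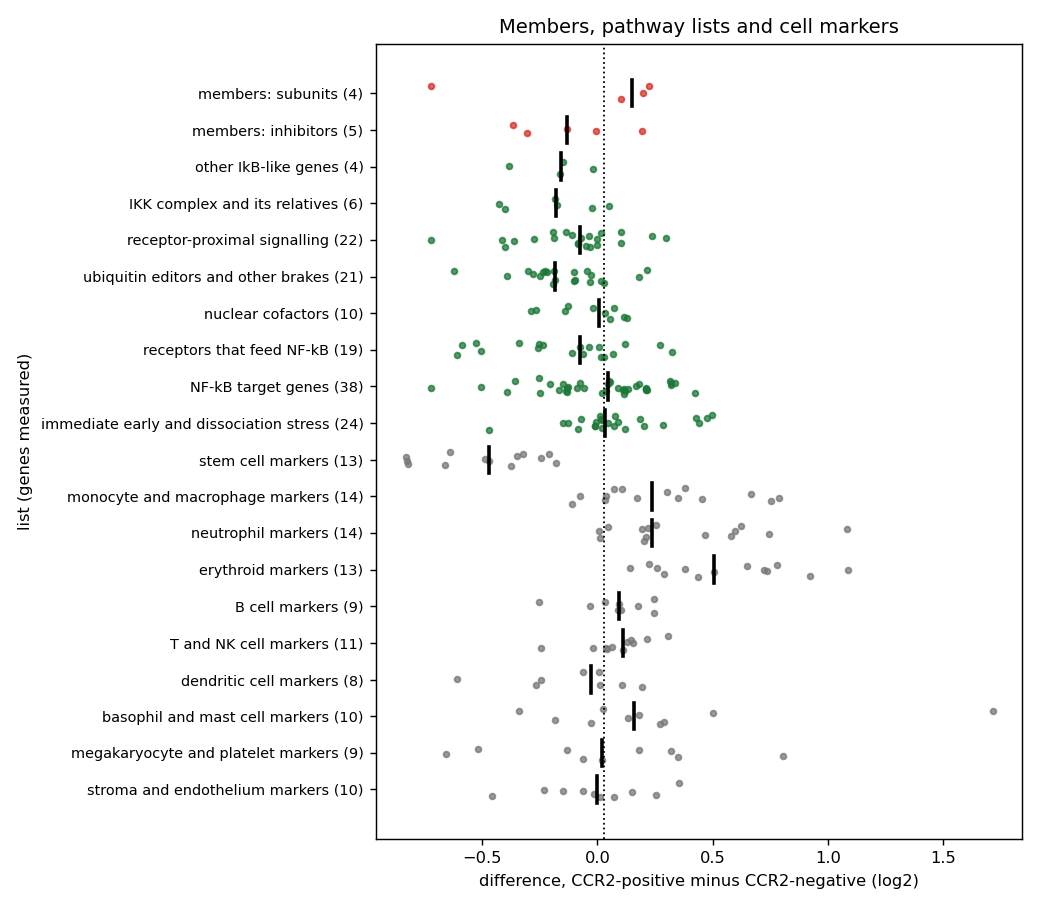
Differences, CCR2-positive minus CCR2-negative (log2, horizontal axis), of every measured gene (points) of the NF-kB subunits and inhibitors (red), the pathway lists (green) and the cell marker lists (grey), with each list's median (black bar) and the median of all genes (dotted line). Medians run from -0.47 for stem cell markers to 0.51 for erythroid markers, with the pathway lists between -0.18 and 0.05.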

How the data were processed

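Transcript levels of sorted stem cells were measured on 6 arrays, 1 for each pool. The authors deposited 1 table of log2 values for 41345 probe sets, made with RMA per the submitters' processing notes, with no version named in the sources used here. The values run from 2.39 to 13.3, and the array medians from 5.48 to 5.58. RMA corrects background and equalises the arrays, so differences are relative to the other genes, and with no detection calls used here the number of arrays sets the precision (median SE of a difference 0.127). The probe sets had 1 gene in 23521 cases, several in 1814 (left unnamed) and none listed in 16010. Of the first, 23328 matched a RefSeq gene of GRCm38.p6 by gene number, and no symbol needed an update.

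CCR2-positive and CCR2-negative pools were compared with limma 3.58.1 in R 4.3.3 (lmFit, eBayes, no covariate), adjusting by Benjamini-Hochberg over all 22180 genes at 0.05, and the fit was tested on simulated data. The limma p-values set the difference between the groups against the spread among these pools, moderated over all genes by eBayes. The genes, and the 8 pathway and 10 marker lists (255 of 279 symbols measured), were chosen with earlier results of these data known. From each pathway list the 4 genes with the smallest p are named, or all where it has 4. Marker lists are described by counts, medians and sums, with single genes named for their p or their level. Likeness was ranked for the 2 NF-kB genes with the smallest p, leaving out predicted genes, RIKEN clones and small RNAs. Alternatives were 2 filters on dim genes, 2 scalings, a replicate block, array weights, a trended and robust eBayes, mean probe sets, all probe sets, and each pool left out. Promoter letters came from RefSeq.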

Additional observations from a re-analysis of the deposited data

How the results depend on the processing

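Every alternative kept the sign for Rel, Nfkbie, Nfkbia, Nfkbib, Relb and Nfkb2 in the settings that tested them, and none brought an NF-kB gene to an adjusted limma p of 0.05. Rel kept an unadjusted p of 8.4e-04 to 0.00627 (adjusted 0.118 to 0.474) over its 14 alternatives. Nfkbie had an unadjusted p of 0.0045 to 0.158 (adjusted 0.229 to 0.672), under 0.05 in 8 of 14. The count of NF-kB genes at an unadjusted limma p under 0.05 was 2 of 9 with all pools, against 12.2% of all genes. It was 1 of the 7 above the median level, against 13.7% of all genes above that level. After a second quantile normalization it was 1 of 9, against 12.1% of all genes. Both times Nfkbie was not among them. With 1 pool left out the count was 1 to 4, against 8.66% to 13.7% of all genes. Non-overlapping NF-kB genes numbered 2 to 6 with 1 pool left out; the 6 came on omitting CCR2-negative replicate 3, where 30.0% of all genes did not overlap, and 5 came on omitting CCR2-positive replicate 2 (32.8%). The median of the NF-kB genes was -0.13 among the 7 above the median level, 0.064 with array weights, and -0.080 to 0.11 with 1 pool left out. Nfkbiz turned to 0.064 with array weights, and with 1 pool left out ran from -0.12 to 0.11, above 0 without CCR2-negative replicate 1 (0.11), CCR2-positive replicate 2 (0.024) or CCR2-positive replicate 3 (0.020). Under the same leave-outs Rela ran from -0.080 to 0.22, Tnfaip3 from -0.26 to 0.021 and Ankrd42 from -0.066 to 0.061.

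Over all genes the limma count at an adjusted p of 0.05 was 0 to 2 with 1 pool left out. The 2, Mcpt8 and Gca, came without CCR2-positive replicate 1. On all probe sets it was 0, with 4410 of 41345 (10.7%) at an unadjusted p under 0.05. In that fit Rel had an unadjusted limma p of 0.00314 (adjusted 0.317) and Nfkbie one of 0.0668, so that only Rel of the NF-kB genes was under 0.05. With the replicate block the limma count over all genes was 0 (smallest adjusted p = 0.0618). In that fit 2935 genes (13.2%) had an unadjusted p under 0.05, and Rel and Nfkbie were the 2 NF-kB genes among them. Same-numbered pools had deviations correlated at 0.035, 0.089 and 0.045, and not every pool correlated best with its own number. With 3 pools in each group these values cannot settle whether the pools were paired. The numbers were not taken as pairs in the main fit. The scaling settings moved the median of all genes from 0.03 to between 0.004 and 0.03. No signal over background is known here, which limits what dim probe sets can show.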
